A study of Mus musculus with 2 samples.

Results

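Secreted proteins of the fetal liver are encoded by the 10 genes described here in RNA-seq libraries of mouse lung: Afp, Alb, Apoa1, Apoa2, Apob, Apoh, Ahsg, Ttr, Trf and Fgb. These 10 genes, of 43346 gene rows in each table, were picked because liver genes were among those that differed most between the libraries, so their difference is given as a description and was not tested. The data are 2 libraries of whole lung taken on embryonic day 16.5 from healthy embryos of strain B6NCrl. They are biological replicates 1 and 2 of a single untreated group. Each was made from pooled male and female embryos, 41 of them in replicate 2, and the labels give no number for replicate 1. Both pools cite the same donor record but separate biosamples, and an SD over n = 2 measures only the spread between these pools. Replicate 1 held 38852470 expected counts and replicate 2 held 27145411.

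The fetal liver makes most proteins of the plasma. Hepatoblasts and hepatocytes secrete carriers such as alpha-fetoprotein and albumin, the apolipoproteins that package lipid, transport proteins for iron, thyroid hormone and retinol, protease inhibitors, and the fibrinogen chains that form clots. The same organ is the main site of red cell formation at this stage, and the yolk sac endoderm expresses several of the same secreted proteins. Many of these genes are switched on by the liver-enriched transcription factors HNF4, C/EBP and FOXA, of which C/EBP and FOXA members also act in lung epithelium.

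The promoters of 4 of the genes are printed here. All 4 genes were higher in replicate 2, and they lie at separate places in the genome, except for the neighbours Alb and Afp. Each line gives the 250 bases before the RefSeq start (GRCm38.p6), 5′ to 3′ on the strand of the gene. Capitals mark matches to the motif letters listed after the sequences.
Alb, chr5:90460620-90460869, plus strand: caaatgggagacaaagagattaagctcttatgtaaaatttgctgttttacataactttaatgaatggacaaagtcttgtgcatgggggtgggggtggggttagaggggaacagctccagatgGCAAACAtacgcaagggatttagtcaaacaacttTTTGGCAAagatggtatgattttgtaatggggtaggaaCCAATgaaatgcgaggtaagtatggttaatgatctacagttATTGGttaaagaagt
Afp, chr5:90490464-90490713, plus strand: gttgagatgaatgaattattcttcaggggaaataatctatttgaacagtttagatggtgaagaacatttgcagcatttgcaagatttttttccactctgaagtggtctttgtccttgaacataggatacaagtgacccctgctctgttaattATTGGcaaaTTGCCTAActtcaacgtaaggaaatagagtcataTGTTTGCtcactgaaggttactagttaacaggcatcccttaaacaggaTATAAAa
Apoa2, chr1:171224804-171225053, plus strand: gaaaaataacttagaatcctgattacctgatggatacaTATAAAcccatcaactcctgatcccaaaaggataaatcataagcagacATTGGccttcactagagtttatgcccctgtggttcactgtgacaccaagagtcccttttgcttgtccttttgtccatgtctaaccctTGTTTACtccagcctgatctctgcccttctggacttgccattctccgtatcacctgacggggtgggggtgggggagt
Fgb, chr3:83049864-83050113, minus strand: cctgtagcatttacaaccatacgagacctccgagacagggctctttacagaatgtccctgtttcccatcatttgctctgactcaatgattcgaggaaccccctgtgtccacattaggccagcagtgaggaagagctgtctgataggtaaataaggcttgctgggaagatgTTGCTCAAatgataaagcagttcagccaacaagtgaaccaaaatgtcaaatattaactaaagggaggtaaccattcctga
Both strands were searched. The TATA box was searched as TATAAA. For HNF4 the letters were CAAAGTCCA, and for C/EBP they were TTGCNNAA. The first form of the FOXA site was TGTTTAC. A variant form of the FOXA site was searched as TGTTTGC. The last motif searched was the CCAAT box. A match may overlap that of another motif, and a match describes letters only.

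Promoter windows of 8 of the 10 genes were used, those other than Ttr and Trf. For the 10 genes, windows on chromosome 18, where Ttr lies, were left out beforehand. The C/EBP letters were present in 5 of 8 windows (Alb, Afp, Apob, Ahsg and Fgb), against 9.56% of the 32851 windows in the table. They lay at positions -94 to -87 from the RefSeq start in Alb, at -89 to -82 in Afp and at -80 to -73 in Fgb. One or both FOXA forms were present in 7 of 8, all but Fgb, against 7.29%. TATAAA was found in 3 of 8 (12.4% of all windows), CCAAT in 3 of 8 (33.8%), and CAAAGTCCA in 0 of 8 (0.384%). The start used for the Ahsg window lies 738 bases and that for the Apoh window 51943 bases from the start of the gene in GENCODE. For Alb and Afp that distance was 27 and 23 bases, and for Fgb it was 0. The positions given above therefore depend on the start used.

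All 10 genes had more RNA in replicate 2. Levels are in TPM, the share of transcripts per length, which can be compared between genes of a library. The summed level of the 10 genes was 201 TPM in replicate 1 and 895 TPM in replicate 2 (548 ± 490 TPM, SD, n = 2). Without Trf, the most abundant of them, the sum was 63.3 and 520 TPM, 8.22-fold higher in replicate 2. Of all expected counts, the 10 genes held 0.0229% in replicate 1 and 0.10% in replicate 2. In bulk RNA a larger number of cells of a type and more RNA per cell cannot be told apart.

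Differences are log2(TPM + 1) in replicate 2 less that in replicate 1. The added 1 makes the difference of a gene near 0 TPM too small. On that scale 10 of 10 genes were at 2-fold or more, and 8 were at 4-fold or more. Among the 15493 genes whose mean reached 1 TPM, 298 (1.92%) were higher in replicate 2 at 2-fold or more, 115 (0.742%) were lower, and 87 (0.562%) were higher at 4-fold or more. Counts not divided by length and scaled by TMM gave 148 higher and 25 lower. Since the 10 genes were chosen on this contrast, nothing is read from these shares. Apob, at a mean of 0.870 TPM, did not pass the filter of 1 TPM, and the other 9 did. The median difference of the 10 genes was 2.66, beside 0.0015 over all genes compared.

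**Figure D1:**
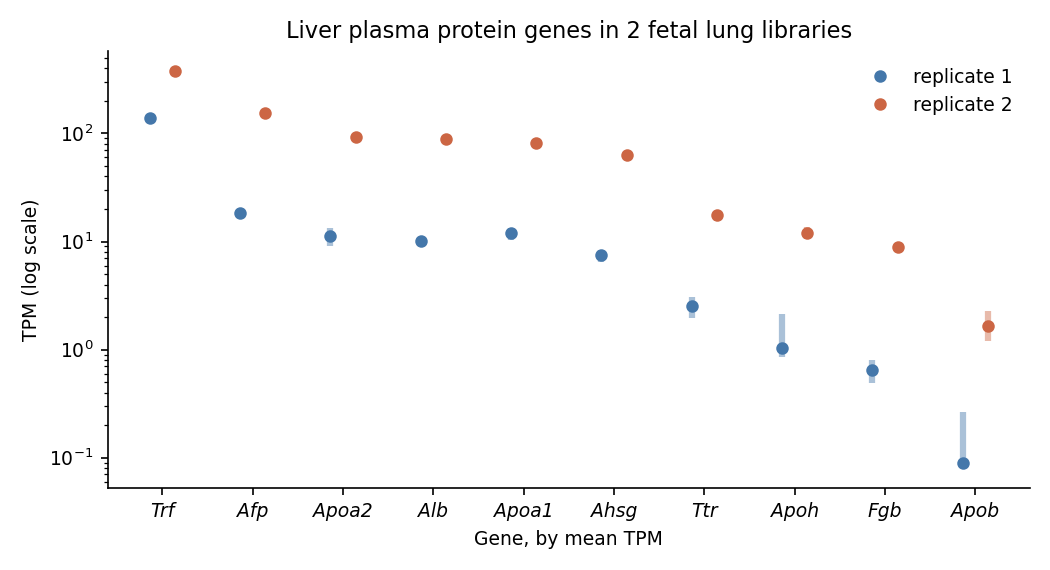
TPM of each gene (log axis) in replicate 1 (blue) and replicate 2 (orange), ordered by mean TPM. Points are the deposited TPM and bars the deposited credibility bounds within a library, hidden behind most points. Replicate 2 lies above replicate 1 for every gene, from 138 and 374 TPM for Trf to 0.09 and 1.65 TPM for Apob.

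Afp encodes alpha-fetoprotein, the main plasma carrier of the fetus, and Alb encodes albumin, its relative that takes over after birth. Afp (chromosome 5, 90490737 to 90508907, plus strand, build mm10 for all genes) had 18.3 TPM in replicate 1 against 155 TPM in replicate 2, an 8.49-fold ratio and a log2 difference of 3.02. Alb (chromosome 5, 90460897 to 90476602, plus strand) stood at 10.1 and 88.3 TPM, an 8.72-fold ratio and a log2 difference of 3.0. These were the largest differences among the 10 genes on the log2(TPM + 1) scale and ranked 14 and 15 of all genes compared. In expected counts per library total, the ratio was 8.62 for Afp (95% exact conditional binomial interval 8.05 to 9.24) and 8.85 for Alb (8.06 to 9.74). Such intervals cover counting error only, and they overlapped for this pair.

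The apolipoproteins carry lipid in plasma. Apoa1 and Apoa2 encode the main proteins of high-density lipoprotein. Apoa1 (chromosome 9, 46228580 to 46230466, plus strand) was at 11.9 and 80.9 TPM in replicates 1 and 2. Apoa2 (chromosome 1, 171225054 to 171226379, plus strand) was at 11.1 and 93.0 TPM. The log2 differences were 2.67 and 2.95. Apoa2 is short, with an effective length of 385 and 390 bases in the 2 libraries, and its level rested on 112 and 673 expected counts, fewer than the 283 and 1403 of Apoa1. The count ratio was 7.10 for Apoa1 (6.24 to 8.09) and 8.60 for Apoa2 (7.03 to 10.6).

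Apob encodes the structural protein of very-low-density and low-density lipoproteins and has the longest mRNA of the 10. It lies on chromosome 12 (7977648 to 8016835, plus strand) and had 0.09 and 1.65 TPM, the lowest level of the set in both libraries. The 18.3-fold ratio of TPM was larger than the count ratio of 12.2 (8.51 to 18.1), from 33 and 282 expected counts. In replicate 2, 9.51 of these counts were assigned to a coding transcript of 1118 bases and gave 30.6% of the TPM of the gene. In replicate 1 that transcript was listed at 0 counts, but the posterior mean shares were 29.7% and 33.2%, so the contrast rests on the point estimate. Posterior mean TPM, a second deposited estimate, was 0.16 and 1.74. Apoh encodes beta-2-glycoprotein I, a plasma protein that binds phospholipid. Located on chromosome 11 (108343354 to 108414396, plus strand), it was at 1.03 and 11.9 TPM, from 26 and 240 counts, with a count ratio of 13.2 (8.80 to 20.6).

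Ahsg encodes fetuin-A, a fetal plasma protein that inhibits mineral precipitation. Its level (chromosome 16, 22891277 to 22899449, plus strand) was 7.54 TPM in replicate 1, against 63.0 TPM in replicate 2, with a log2 difference of 2.91. Ttr encodes transthyretin, which carries thyroid hormone and the retinol-binding protein. The gene (chromosome 18, 20665280 to 20674321, plus strand) was at 2.53 and 17.7 TPM, with a log2 difference of 2.41. The count ratio was 8.48 for Ahsg (7.45 to 9.68) and 7.12 for Ttr (5.53 to 9.27).

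Fgb encodes the beta chain of fibrinogen, the precursor of fibrin. It lies on chromosome 3 (83040141 to 83049863, minus strand) and had 0.65 and 8.84 TPM, from 63 and 608 counts. Its count ratio of 13.8 (10.6 to 18.2) was the highest of the 10 genes, and its interval lay above that of Alb. Its log2 difference of 2.58 fell below that of Alb because 1 was added to a TPM below 1 in replicate 1.

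Trf encodes transferrin, the iron carrier of plasma, which cells outside the liver also express. The gene lies on chromosome 9 (103204001 to 103230444, minus strand). It was the most abundant of the set, at 138 and 374 TPM, and had the smallest ratio, 2.71-fold in TPM and 2.87 in counts (2.78 to 2.95). It ranked 157 of all genes compared, whereas the other 8 genes that passed the filter ranked between 14 and 50. In absolute terms the order was different: the increase from replicate 1 to replicate 2 was 236 TPM for Trf, 137 TPM for Afp, 81.9 TPM for Apoa2 and 78.1 TPM for Alb.

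The deposited credibility bounds of the 2 libraries did not overlap for any of the 10 genes, and replicate 2 had the higher bounds each time. Of the 15493 genes compared, 1039 (6.71%) had bounds apart and higher in replicate 2, and 1534 (9.9%) apart and lower. For Alb the bounds ran from 9.05 to 10.8 TPM and from 82.6 to 88.5 TPM. For Apob they ran from 0.0804 to 0.267 and from 1.19 to 2.29 TPM. The Afp value of 155 TPM in replicate 2 lay above its own bounds of 146 to 154 TPM, while its posterior mean TPM of 150.42 lay within them. The bounds describe the estimate within a library and hold no spread between pools.

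**Figure D2:**
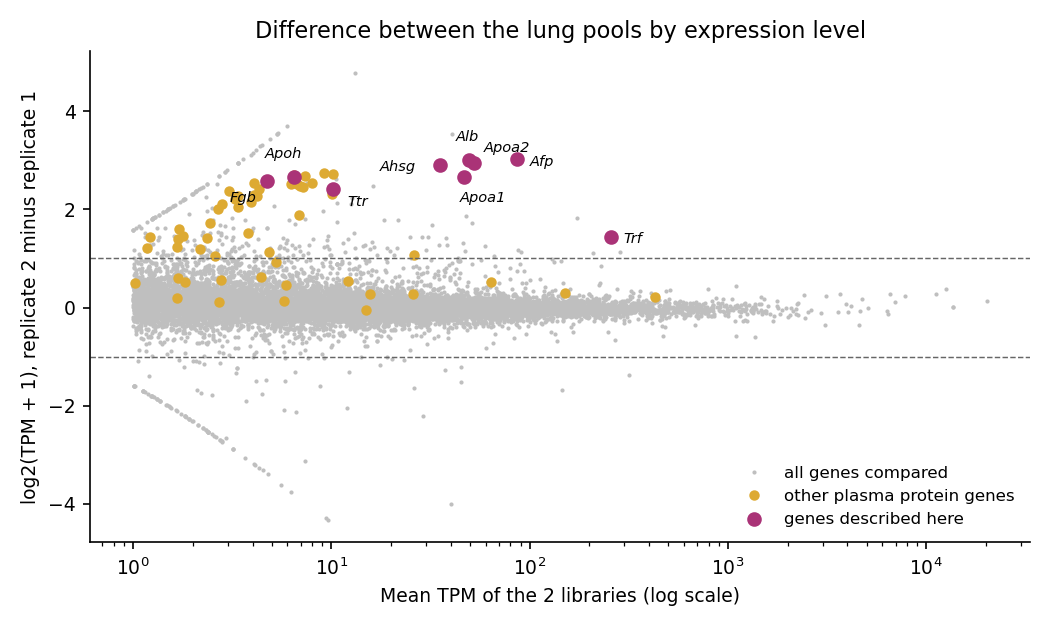
Log2(TPM + 1) difference, replicate 2 minus replicate 1, against mean TPM (log axis) for the 15493 genes compared (grey), with 9 of the 10 genes (purple; Apob is below the filter of 1 TPM) and other plasma protein genes (yellow). Dashed lines mark 2-fold. Afp, Alb, Apoa2, Ahsg and Apoa1 lie between 2.67 and 3.02, and Trf at 1.43.

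Levels relative to Alb within a library cancel its scaling. The ratios come from the same TPM values on which the genes were picked, so they too are a description. Afp exceeded Alb 1.80-fold in replicate 1 and 1.76-fold in replicate 2, a log2 ratio of 0.83 ± 0.03 (SD, n = 2). The ratio was 1.10 and 1.05 for Apoa2 and 0.745 and 0.714 for Ahsg. For Afp, Apoa2 and Ahsg the log2 ratio moved by less than 0.1 between the libraries. The ratio fell from 1.18 to 0.917 for Apoa1 and from 0.25 to 0.201 for Ttr. It was higher in replicate 2 for the genes of lowest level, at 0.102 and 0.135 for Apoh, 0.0642 and 0.10 for Fgb and 0.00889 and 0.0187 for Apob. For 6 of the 9 genes the counting interval of the ratio between libraries held the ratio of Alb, and the exceptions were Apoa1, Fgb and Trf. This leaves out the counting error of Alb itself, and the interval of Apoa1 (6.24 to 8.09) overlapped that of Alb (8.06 to 9.74). Genes of few counts, such as Apoh, have wide intervals that hold a given ratio more easily.

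Trf stood apart in this comparison. It was 13.6 times the level of Alb in replicate 1 and 4.24 times in replicate 2, a log2 ratio of 2.93 ± 1.19. Trf made up 68.6% of the summed TPM of the 10 genes in replicate 1 and 41.8% in replicate 2. Without it, the shares of the remaining sum were similar in the libraries, at 28.9% and 29.8% for Afp, 17.6% and 17.9% for Apoa2, 16.0% and 17.0% for Alb, and 11.9% and 12.1% for Ahsg. Apoa1 was the exception among the abundant genes, at 18.8% and 15.5%.

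**Figure D3:**
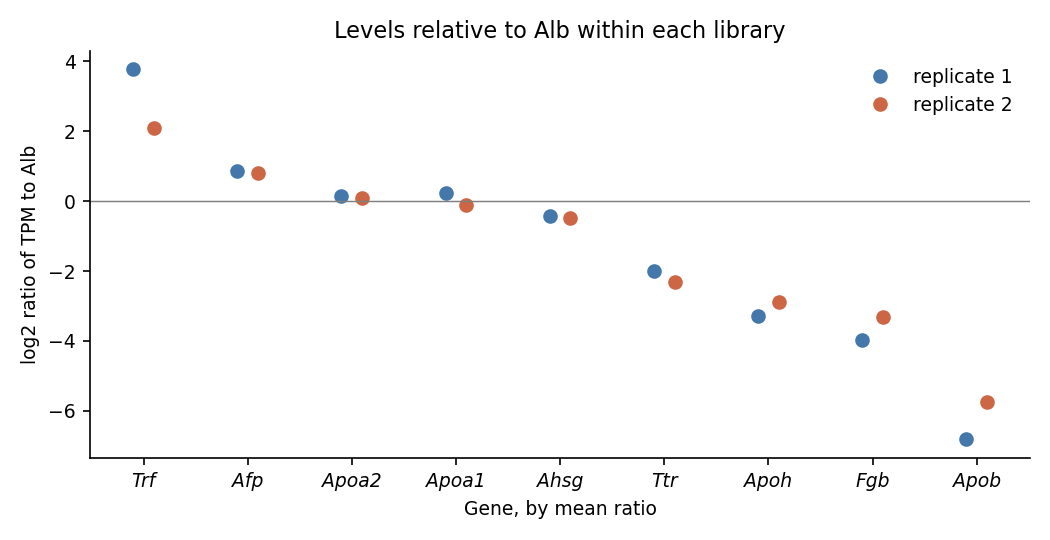
Log2 ratio of the TPM of each gene to that of Alb in replicate 1 (blue) and replicate 2 (orange), ordered by mean ratio. Afp, Apoa2 and Ahsg nearly coincide, whereas Trf falls from 3.77 to 2.08 and Apob rises from -6.81 to -5.74.

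The transcript tables hold 28 transcripts of these genes. Afp, Alb, Ahsg, Ttr and Fgb have 1 transcript each. In the other 5 genes the same transcript led in both libraries. Apoa2-201 took 46.9% of Apoa2 in replicate 1 and 56.2% in replicate 2, Apoa2-202 took 36.6% and 23.2%, and the transcript of 518 bases took 16.5% and 20.6%. Apoa1-201 took 93.7% and 100% of Apoa1, and Apoh-201 took 84.4% and 100% of Apoh, where the second transcript in replicate 1 rested on 1.13 expected counts. By the deposited posterior means, Apoh-201 took 53.5% and 94.9%.

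For Trf the split was close to equal in the libraries although its level was 2.71-fold apart. Trf-201, which codes for the protein, took 67.9% and 66.0% (67.0 ± 1.38%). Trf-209, a fragment of 433 bases annotated as a retained intron, took 24.7% and 23.5% of the TPM from 297 and 544 expected counts. Trf-203, also coding, was at 0.8% in replicate 1 and 7.65% in replicate 2. The expected counts of 9 of the 10 genes were whole numbers in both libraries, within 0.005 counts, and Trf, at 13186.2 counts in replicate 2, was the exception. Gm20425, which overlaps Trf on the same strand, was listed at 0 TPM in replicate 1 and at 3.57 TPM, 194 counts, in replicate 2.

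The genes were set beside their nearest coding neighbours. Alb and Afp, on the same strand of chromosome 5, lie 14135 bases apart. Afm, the next gene of the albumin family, was at 0 counts in replicate 1 and 19 counts in replicate 2. Gm9958 on the other side of Alb was at 5.65 and 6.28 TPM. Fga, the fibrinogen alpha chain gene 6514 bases from Fgb on chromosome 3, was at 1.63 and 16.6 TPM, and Plrg1 on the other side of Fgb was at 83.1 and 79.3 TPM.

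At the remaining places the neighbours listed on either side, where they had a mean of 1 TPM or more, were less than 2-fold apart. Sik3 beside Apoa1 on chromosome 9 was at 4.12 and 4.67 TPM, and Apoc3 on its other side had 0 and 1 counts. Tomm40l and Fcer1g beside Apoa2 on chromosome 1 had log2 differences of 0.04 and 0.16, and Srprb beside Trf had -0.04. Klhl29 and Ldah beside Apob were at 0.3 and 0.24 TPM and at 25.7 and 24.6 TPM. Cacng5 and Cep112 beside Apoh were at 0.12 and 0.18 TPM and at 12.5 and 15.7 TPM. On the other side of Trf, 1300017J02Rik was at 1.93 and 3.41 TPM. Dsg2 and B4galt6 beside Ttr had -0.0024 and -0.41. Dnajb11 beside Ahsg had -0.12, and Fetub, the related fetuin gene on its other side, had 2 counts in each library. Prkca overlaps the annotated start of Apoh on the opposite strand and was at 8.28 and 7.16 TPM. No strand setting is given in the sources used here, so reads of genes that overlap on opposite strands cannot be told apart.

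Other plasma protein genes of the liver were higher in replicate 2 as well. Over 5 lists with 78 measured genes, 52 had a mean of at least 1 TPM, 35 of these were at 2-fold or more higher and 0 at 2-fold or more lower. Over all 15493 genes compared, 1.92% were higher and 0.742% lower at 2-fold or more. The same shares are the background for the counts of every list below. Many passed the filter only through replicate 2, so the counts are descriptions. Of the 35 that stood under 2 TPM in replicate 1, 31 were at 2-fold or more higher, and of the 7 at 10 TPM or more in replicate 1, 1 was.

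All 12 coagulation genes compared were at 2-fold or more higher. Of the 19 genes measured in this list, only 5 had 1 TPM or more in both libraries. The others among the 12 passed the filter only through replicate 2, which favours a high count. The median log2 difference was 1.999, and it was 1.285 with no filter. With a pseudocount of 5 the median was 1.01 and with one of 0.1 it was 3.06. The fibrinogen chains Fga and Fgg were at 1.63 and 16.6 TPM and at 1.26 and 13.5 TPM, and the kininogen gene Kng1 at 1.00 and 11.96 TPM. Their count ratios were 10.5 (8.41 to 13.3), 10.9 (8.14 to 14.7) and 11.7 (8.71 to 16.0), and each interval overlapped that of Fgb. Serpinc1, which encodes antithrombin, was 4.86-fold higher in TPM but only 2.02-fold in counts (1.74 to 2.36), so its size depends on whether counts were divided by effective length.

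Protease inhibitors gave 11 of 12 genes at 2-fold or more, with a median of 2.24, and 2.05 with no filter. Of the 17 genes measured, 5 had 1 TPM or more in both libraries, so the same limit holds here. Ambp, the precursor of alpha-1-microglobulin and bikunin, was at 1.95 and 18.5 TPM, and Serpina6, corticosteroid-binding globulin, at 1.63 and 14.3 TPM. The alpha-1-antitrypsin genes Serpina1a and Serpina1b were at 1.43 and 12.4 TPM and at 1.55 and 12.9 TPM, and reads of these near-identical copies may be split between them.

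Lipid carriers and other carriers were mixed. Among lipid carriers 5 of 10 genes were at 2-fold or more, with a median of 0.90. Apoc2, the activator of lipoprotein lipase, was at 2.73 and 17.5 TPM and Apom at 1.17 and 11.4 TPM. Apoe, which macrophages also make, was at 393 and 459 TPM, and Apoc1 at 23.2 and 28.1 TPM. Among other carriers 5 of 11 were at 2-fold or more, with a median of 0.54. Vtn (vitronectin) was at 1.29 and 12.2 TPM and Gc, the vitamin D-binding protein, at 0.69 and 7.97 TPM, whereas Selenop was at 135 and 165 TPM and Hp (haptoglobin) at 52.6 and 75.7 TPM.

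Complement genes had a median of 0.56, with 2 of 7 at 2-fold or more, Cfb at 1.48 and 6.14 TPM and C3 at 2.65 and 7.0 TPM. Of the plasma protein genes in these lists, Apoe, Selenop and Hp, with high levels in replicate 1, had ratios of 1.17, 1.22 and 1.44 in TPM. Rbp4, the retinol-binding protein gene of the other carriers, was at 16.41 and 35.65 TPM, a ratio of 2.17.

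Intracellular liver genes were mostly low. Of 20 genes for hepatocyte enzymes and surface proteins, 7 were compared and 2 were at 2-fold or more higher, with a median of 0.56. Bhmt, of methionine metabolism, was at 0.11 and 2.19 TPM. The highest of the list were Ass1, of arginine synthesis, at 60.4 and 76.7 TPM and Mat1a, of S-adenosylmethionine synthesis, at 5.37 and 7.74 TPM. The urea cycle gene Cps1 was at 0.58 and 1.09 TPM and the asialoglycoprotein receptor gene Asgr1 at 0.04 and 0.15 TPM. Hamp, which encodes hepcidin, was listed at 0 in both.

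None of the 9 hepatocyte transcription factor genes compared reached 2-fold, and their median was 0.02. Hnf4a was at 0.02 and 0.28 TPM, below the filter. Foxa2 was at 31.9 and 27.3 TPM and Cebpa at 5.63 and 6.79 TPM, and both are also factors of lung epithelium.

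**Figure D4:**
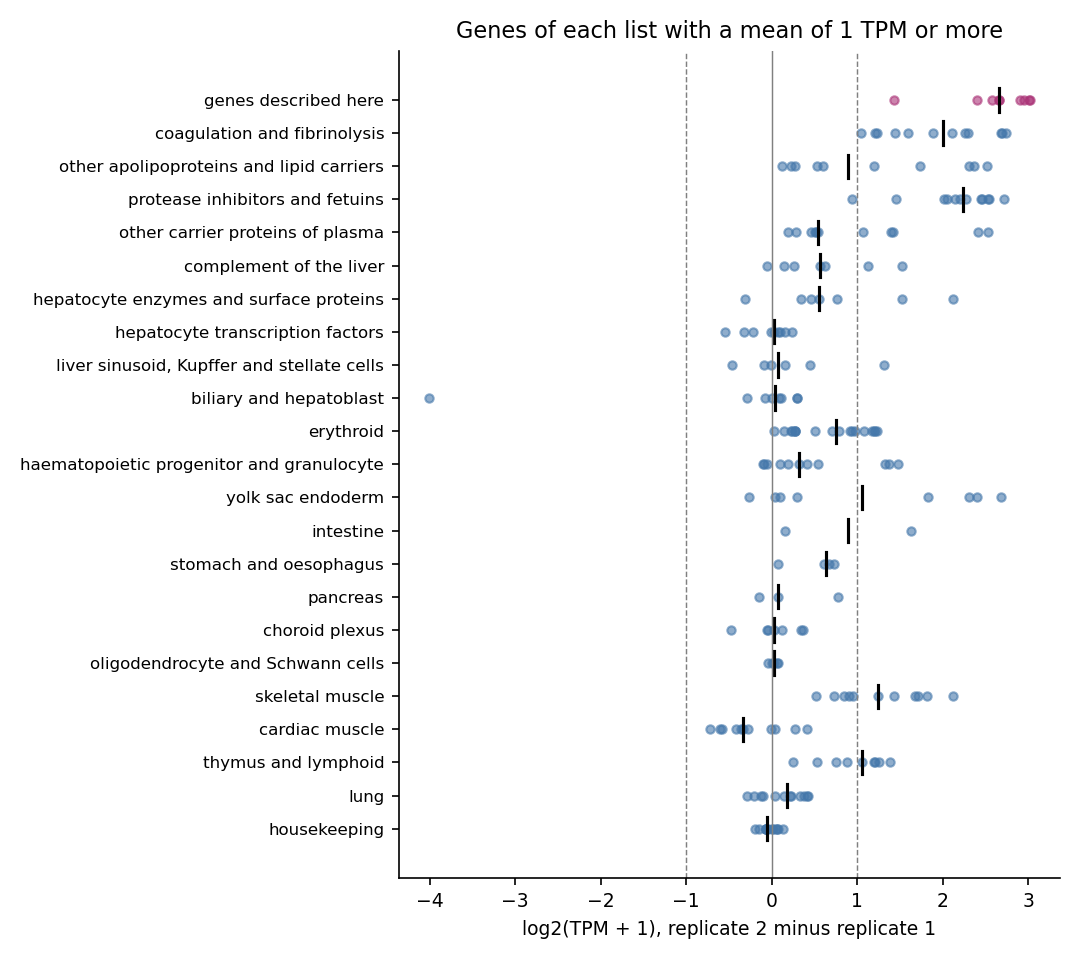
Log2(TPM + 1) difference, replicate 2 minus replicate 1, of each gene with a mean of 1 TPM or more, by list; points are genes, black bars list medians and dashed lines 2-fold. The genes described here have a median of 2.67 over the 9 that passed the filter, protease inhibitors 2.24 and coagulation genes 2.00, whereas hepatocyte transcription factors sit at 0.02 and housekeeping genes at -0.06.

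Markers of other cells of the liver were set beside these genes. Of the 18 erythroid genes compared, 5 were at 2-fold or more higher in replicate 2, and their median was 0.75. Klf1, the erythroid transcription factor, was at 1.25 and 4.06 TPM, Hemgn at 0.95 and 3.58 TPM and the blood group gene Rhd at 1.68 and 5.19 TPM. The globins of circulating red cells differed less, with log2 differences of 0.14 for Hba-a2 and 0.27 for Hbb-bs, and the transferrin receptor gene Tfrc was at 48.0 and 48.8 TPM. The list summed to 42703 TPM in replicate 1 and 49356 TPM in replicate 2. Hbb-bs with Hbb-bt, and Hba-a1 with Hba-a2, are close copies, so the split within each pair is uncertain.

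Of 6 genes of sinusoidal, Kupffer and stellate cells compared, 1 was at 2-fold or more: Fcna, a ficolin of macrophages, at 2.97 and 8.89 TPM. Stab2, a receptor of sinusoidal endothelium, was lower in TPM, at 8.17 and 5.63. Its count ratio was 0.879 (0.770 to 1.003), an interval that holds 1, so its size depends on the division by effective length. Oit3 was at 2.37 and 2.35 TPM. Below the filter, the Kupffer gene Clec4f was at 0.06 and 0.30 TPM, from 4 and 13 counts. Cd5l, also below it, was at 0.38 and 1.14 TPM, from 19 and 41 counts, with a count ratio of 3.09 (1.75 to 5.63). The list summed to 84.7 and 95.1 TPM. Among 8 biliary and hepatoblast genes compared, 0 were at 2-fold or more higher, and Dlk1 was at 593 and 630 TPM and Krt19 at 296 and 364 TPM. Spp1, also a gene of bone, was at 76.2 and 3.79 TPM. Among 11 genes of blood progenitors and granulocytes, 3 were at 2-fold or more higher, with Ngp at 2.89 and 9.06 TPM and Camp at 0.99 and 4.53 TPM, while Kit was at 39.2 and 36.4 TPM.

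Other tissues that express some of these genes were checked. Of 8 yolk sac endoderm genes compared, 4 were at 2-fold or more higher. These were Ttr itself, Apoc2 and Fgg, which the liver shares, and Spink1 at 0.83 and 5.51 TPM, from 7 and 33 counts. The endoderm genes Cubn and Rhox5 were at 0.63 and 0.55 TPM and at 2.59 and 2.68 TPM. Choroid plexus, a second site of Ttr expression, gave 0 of 7 genes at 2-fold or more, and 4 of the 7 were higher by any amount. Kcnj13 was at 6.34 and 8.45 TPM, a count ratio of 1.35 (1.10 to 1.66). Below the filter, Kl was at 0.20 and 0.06 TPM and Otx2 was listed at 0 in both. Oligodendrocyte and Schwann cell genes, beside Trf, gave 0 of 5, with a median of 0.02. Intestinal genes gave 1 of 2, Fabp6 at 0.20 and 2.70 TPM, with Cdx2 at 0 and 0.07 TPM. Fabp6 passed the filter only through replicate 2 and rested on 2 and 19 expected counts, with a wide count ratio interval of 3.28 to 120. Pancreas genes gave 0 of 3 and those of stomach and oesophagus 0 of 4.

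Genes of 2 further tissues near the lung were also higher in replicate 2. Skeletal muscle genes had a median of 1.25, with 6 of 11 at 2-fold or more and sums of 237 and 665 TPM, and thymus and lymphoid genes a median of 1.05, with 5 of 9 and sums of 39.6 and 82.6 TPM. The thymus median was 0.52 with a pseudocount of 5 and 0.72 with no filter. Cardiac muscle genes had a median of -0.34, with 0 of 11 at 2-fold and sums of 1196 and 935 TPM. The part of erythroid, muscle, thymus and other cells in the difference of the 10 genes was not tested.

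Genes of the lung itself were less than 2-fold apart. All 12 lung genes were above 1 TPM in both libraries and their log2 differences lay between -0.29 and 0.43, 8 of them higher in replicate 2, with a median of 0.18. The surfactant gene Sftpc was at 10883 and 14172 TPM and Ager, of flat alveolar cells, at 318 and 400 TPM, while the lung transcription factor genes Nkx2-1 and Tbx4 were at 77.0 and 62.6 TPM and at 59.2 and 51.4 TPM. Among 14 housekeeping genes the range was -0.20 to 0.13. For each count on the spike-in RNA there were 42.5 gene counts in replicate 1 and 42.0 in replicate 2.

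The genes of like pattern were found by the distance of their log2 difference from the median of the 10 genes, over 2 libraries, among coding genes whose mean reached 10 TPM. The nearest were Gm13304 at 2.22 and 18.8 TPM, Ambp, the calcium pump gene Atp2a1 of fast muscle at 4.28 and 28.2 TPM, and Apoc2. The next 6 were Myh8, Gm20721, Acta1, Tnnc2, Tnni2 and Mybpc1, with log2 differences from 2.12 down to 1.51. Of these 10 genes, 6 encode proteins of skeletal muscle, and 2 encode plasma proteins. Genes below a mean of 10 TPM were outside this search, so these numbers depend on that filter. Among the genes left out were the plasma protein genes Fgg, Kng1 and Fga, with log2 differences of 2.68, 2.70 and 2.74.

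Among genes of any class whose mean reached 10 TPM, the largest differences outside the 10 genes were those of Gm22333, a small nuclear RNA gene, at 0 and 26.4 TPM, and Gm14539, a processed pseudogene, at 5.55 and 75.4 TPM. Gm22333 rested on 0.98 expected counts in replicate 2 and has no interpretable size. By contrast the difference of Afp rested on 948 and 5710 counts and that of Alb on 514 and 3179.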

How the data were processed

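The libraries were made from total RNA longer than 200 nt, 10 ng each, per the labels. The authors deposited expected counts, estimates of reads per gene or transcript, and TPM and FPKM values per effective length, on mm10 with annotation M4, per the README of each deposit. Deposited score columns give credibility bounds of TPM, and deposited percent columns give a transcript's share of its gene. The quantifier is not given in the sources used here. Symbols and coordinates came from GENCODE M21 (same build) by identifier without version, which matched 42462 of 43346 gene rows. A further 26248 rows with bare numbers held 0.000191% and 0.000273% of the counts and entered no comparison.

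Genes with a mean of 1 TPM or more were compared on log2(TPM + 1), and a gene was called at 2-fold. A single group of 2 libraries allows no test. Count ratios divide expected counts, rounded to whole numbers, by library totals and carry 95% intervals. Alternatives used posterior means, FPKM, counts scaled by edgeR 4.0.16 (TMM), DESeq2 1.42.0 or spike-ins, and pseudocounts of 0.1 and 5. Python 3.11.15, SciPy 1.17.1 and R 4.3.3 were used. The genes and lists were chosen with earlier results of these data known. Named genes were the 10, up to 4 of each list by level and 2 by difference, and the 10 largest and 10 nearest differences above 10 TPM; neighbours were named for every gene, and other genes named, apart from defining cell type markers, were chosen after their values were seen. Protein sequences were not used here. PCR reads are not independent molecules, so intervals cover counting error only. Some results on single genes are not reported here.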

Additional observations from a re-analysis of the deposited data

How the results depend on the processing

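The log2 differences of the 10 genes kept their direction under all 7 other settings, and 69 of 70 values stayed at 2-fold or more; the exception was Apob with a pseudocount of 5, at 0.39. The difference of Trf ranged from 1.41 to 1.5 and that of Fgb from 1.29 to 3.58. The number of all genes higher in replicate 2 at 2-fold was 298 and moved to 148 with TMM scaling, 146 with DESeq2 size factors, 150 with spike-in scaling, 504 with a pseudocount of 0.1, 87 with a pseudocount of 5 and 58 with a minimum of 10 TPM. The number lower was 115 and moved to 45 with posterior mean TPM, 25 with TMM scaling, 25 with DESeq2 size factors, 25 with spike-in scaling, 33 with a pseudocount of 5 and 15 with a minimum of 10 TPM. The stricter minimum tests fewer genes; the cause of the other moves was not tested. The summed TPM of the 10 genes was 895 without replicate 1 and 201 without replicate 2. With counts not divided by length, the log2 ratio to Alb turned from 0.11 to -2.22 for Apoa2 and from 0.05 to -1.02 for Apoa1. That of Apob went from -6.28 to -3.73, and only that of Trf stayed within 1 SD. Over all genes and settings, 27 ratios stayed within 1 SD, 8 moved and 1 reversed. The 27 include every ratio with 1 replicate left out, which at n = 2 lies within 1 SD by arithmetic. Those settings therefore show nothing about stability. Of the list medians, 183 kept their side of 2-fold, 10 fell below it and 3 rose above it. Those that fell were of the yolk sac list (main 1.06, down to 0.27 with no filter) and the thymus list (main 1.05; 0.52 with a pseudocount of 5, 0.73 with a minimum of 10 TPM, 0.72 with no filter, 0.97 by FPKM). Those that rose, with a pseudocount of 0.1, were lipid carriers (1.35), erythroid genes (1.01) and intestine (1.70). With a pseudocount of 5 the median of protease inhibitors went from 2.24 to 1.04 and that of coagulation genes to 1.01 (1.28 with no filter). By posterior mean shares the leading transcript took 48.1% of Apob, 74.2% of Apoh and 65.4% of Trf as means over the libraries, against 81.9%, 92.2% and 67.0%. A difference between the libraries cannot be formed with a replicate left out. No paired analysis was possible because there is a single group.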
